A study of Mus musculus with 10 samples.

Results

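The genes examined here carry the enzymes, transporters and regulators that burn fat in mitochondria and run the citric acid cycle. They were compared in gastrocnemius, a calf muscle, between mice that lost myostatin as adults and mice that kept it. The list held 46 genes, and a gene counted as measured where at least 1 probe set carried its symbol alone, with its brightest probe set over all 10 arrays as its value. By that rule 44 of 46 genes were measured, among 18194 genes on the array that met it. All 44 passed the filter on dim probe sets. No probe set of the annotation carried Acsl1, which activates long-chain fatty acids. Cpt1b, the muscle form of the outer carnitine transferase, shares its probe set with neighbouring genes and has no value here. The measured members are 3 genes of fat uptake, 17 of the carnitine shuttle, beta-oxidation and its electron transfer, 3 regulators of fuel choice, and 21 of the pyruvate dehydrogenase complex and the cycle.

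The study ran 10 arrays, each labelled as a muscle sample of a male mouse, 7.5 months old, on a C57BL/6 background. Every animal, controls included, carried the CAGG-CreER transgene, a Cre recombinase that tamoxifen switches on, and every animal was given 8 tamoxifen injections from 4 months of age. The 5 knockout samples (titled Floxed_Mstn) came from mice with floxed myostatin genes, and the 5 control samples (titled WT_Mstn) from mice with normal ones. The CAGG promoter is known to be active in most cell types, so the design does not restrict deletion to muscle fibres. No probe set carried the name Mstn, and neither the loss of the transcript nor the cells that lost the gene were checked here. The 7 bacterial hybridisation controls, RNA added to every array, averaged between 12.84 and 13.46 (log2 intensity). They were highest on knockout 3, knockout 1 and control 3. The labels name no batches or pairs. All 10 genes of a muscle fibre list and all 9 of a slow fibre list were measured. The fibre genes had a mean level from 15.07 to 15.16 over the arrays, with 8 of 10 higher in knockouts and Mb and Myh2 lower. The 3' to 5' difference of the Gapdh probe sets, a measure of RNA integrity, was 0.49 ± 0.03 in controls and 0.45 ± 0.03 in knockouts (log2, SD, n = 5 each), and its part in the results below was not tested.

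Myostatin is a secreted growth factor of the TGF-beta family that limits muscle mass. Muscle takes up fatty acids released from lipoproteins, links them to coenzyme A and carries them into mitochondria as carnitine esters. There, beta-oxidation shortens each chain in repeated rounds of dehydrogenation, hydration, a further dehydrogenation and cleavage, and hands electrons to the respiratory chain. The acetyl-CoA made from fat, or from pyruvate by the pyruvate dehydrogenase complex, enters the citric acid cycle. Slow and oxidative fibres are richer in all of these enzymes than fast glycolytic fibres.

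No member differed between knockout and control muscle past the threshold on the adjusted p, 0.05 in limma with Benjamini-Hochberg adjustment over 21154 probe sets. Across the array 0.0993% of probe sets passed, or 0.131% of genes by their brightest probe set, so 0 of 44 is no departure from that background. The lowest adjusted p of a member was 0.541, for Acads. At an unadjusted p under 0.05, 1 of 44 members stood, or 2.27%, against 8.9% of 10704 genes. The groups overlapped for all 44 members, while 2.63% of all genes and 2.06% of all probe sets had groups that did not overlap. No other of the 79 kept probe sets of these genes passed either, and 3 of them had an unadjusted p under 0.05, against 7.69% of all probe sets.

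The differences were small, and how closely they were bounded varied with the class. The median over members was 0.02 (knockout minus control, log2 intensity) and the median size was 0.04, against 0.11 over all genes and 0.08 over the 5605 genes at least as bright as the dimmest member. The 95% interval of the difference lay inside 0.32 log2 units in either direction, a 25% rise or the matching fall, for 34 of 44 members, and inside a 1.5-fold change for 43 of 44. Of those 5605 genes, 54.1% met the narrower bound. Among members it was met by 20 of 21 genes of pyruvate dehydrogenase and the cycle. It was met by 12 of 17 genes of the carnitine shuttle, beta-oxidation and electron transfer. Of the fat uptake genes 2 of 3 met it, and of the regulators of fuel choice 0 of 3. Neither comparison set matches the members in brightness. The median level was 12.94 for members, 10.35 for the 5605 genes and 8.57 for all genes. The median SE was 0.0742, 0.0953 and 0.133 in the same order. Ucp3 was the member whose interval reached past 1.5-fold. The probe sets of 9 members lay within 2 log2 units of the lowest array maximum of 16.01, and whether differences are compressed there was not tested.

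**Figure D1:**
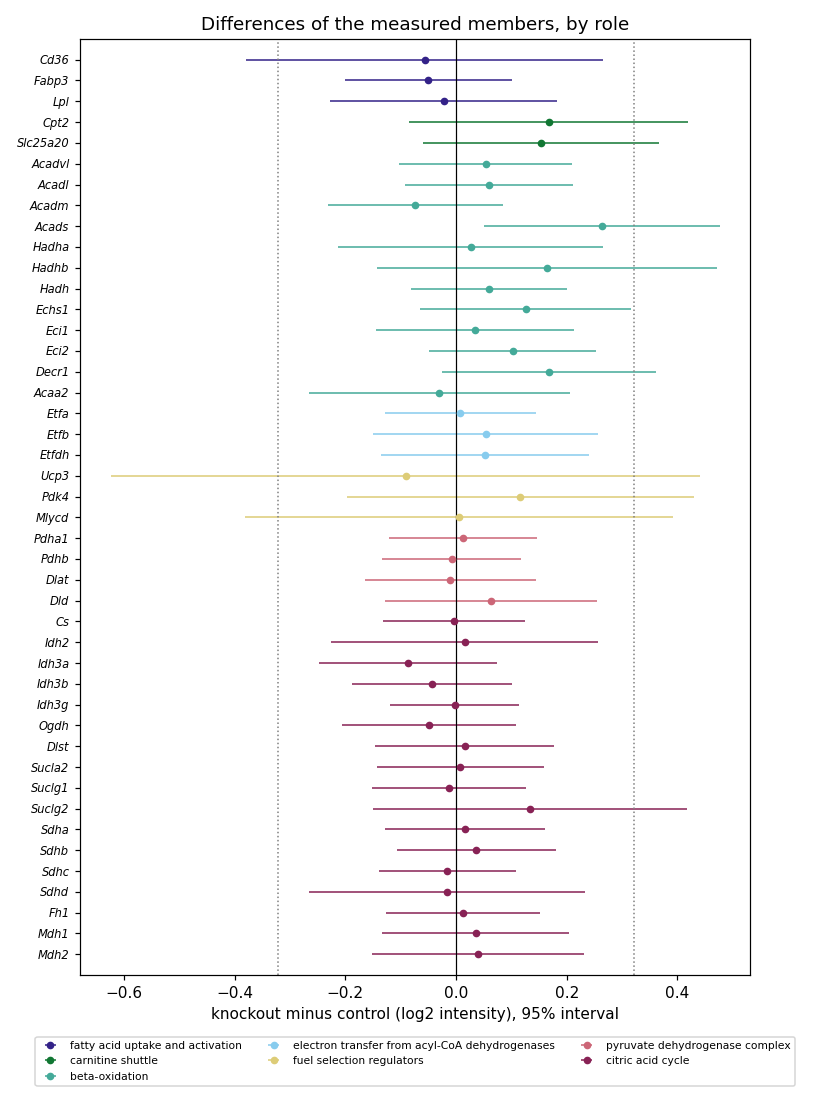
Difference between knockout and control (x axis, log2 intensity) for each of the 44 measured members (y axis), coloured by role, with the 95% interval from limma (n = 5 per group). Dotted lines mark 0.32 log2 units in either direction, and Acads is the gene whose interval does not include 0, though its adjusted p was 0.541.

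The classes did not all lean the same way. Of 17 genes of the carnitine shuttle, beta-oxidation and electron transfer, 15 had higher values in knockouts, with a median of 0.06 (log2). The 21 genes of pyruvate dehydrogenase and the cycle split into 11 higher and 10 lower, with a median of 0.0077. All 3 fat uptake genes had lower values, with a median of -0.05, and the 3 regulators of fuel choice had a median of 0.0050. Over all genes 48.5% had higher values and the median was -0.0049. Members share arrays and are not independent, so these counts describe the lists and carry no test. Another 18 genes of mitochondrial and peroxisomal beta-oxidation, outside the member list, had 15 higher values and a median of 0.10.

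**Figure D2:**
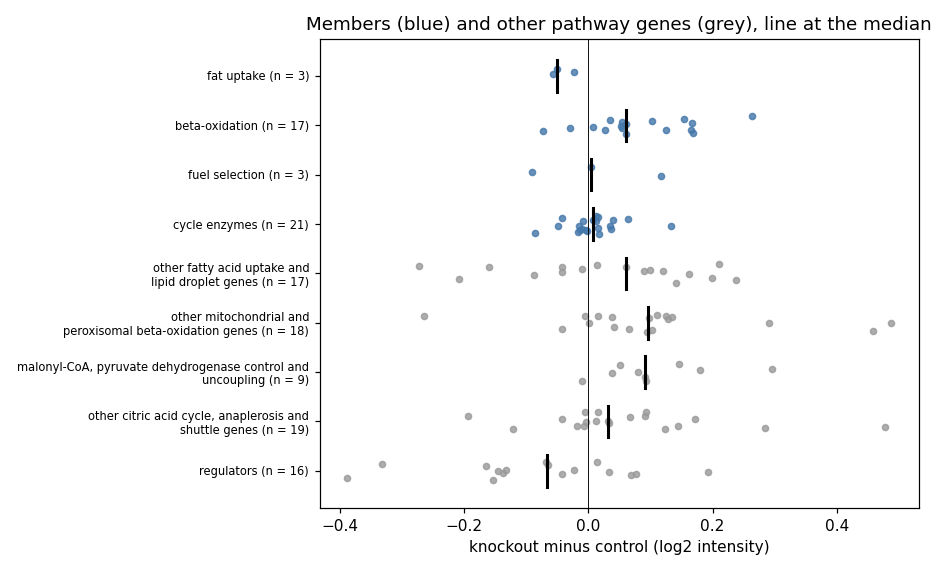
Difference between knockout and control (x axis, log2 intensity) of each member by class (blue) and of each gene of the other pathway lists (grey), with a black line at the median of each row. The 17 beta-oxidation members centre on 0.06 and the 21 cycle enzymes on 0.0077.

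Promoter sequence was searched as a feature the choice of genes did not use. RefSeq promoters of GRCm38.p6 were found for 40 of 46 members, and the 250 bases before the start were read on both strands. None was found for Acaa2, Lpl, Idh3a, Sdhc, Decr1 and Cpt1b, so these were not searched. The core element AGGTCA, which nuclear receptors such as PPAR and ERR recognise, stood in 8 of 40 (20%), against 14.6% of 17492 protein-coding genes. The longer forms that contain it, TCAAGGTCA of ERR and the direct repeat of AGGTCA with 1 free base between the copies, of PPAR with RXR, stood in 0 of 40, against 0.36% and 0.0515% of all genes. The element of NRF1 (GCGCA, any base, then GCGC), a regulator of mitochondrial genes, stood in 5 of 40 (12.5%), against 5.84%. Those genes were Etfb, Etfdh, Sdha, Sdhd and Sucla2. CCGGAAGT, an ETS site of the kind GABPA binds, stood in 2 of 40 (5%), near the 4.26% of all genes, and the genes were Cpt2 and Slc25a20. Promoters of members had a median GC content of 59.4%, against 55.6% over all, which bears on GC-rich motifs. A match is a stretch of letters and not a shown binding site. The matches in members whose values are given array by array follow, on the gene's strand, with the motif, or its reverse complement TGACCT, in capitals.
Cpt2: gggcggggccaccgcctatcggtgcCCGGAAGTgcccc
Slc25a20: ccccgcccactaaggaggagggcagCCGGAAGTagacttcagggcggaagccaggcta
Echs1: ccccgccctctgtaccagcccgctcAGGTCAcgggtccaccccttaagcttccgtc
Acadm: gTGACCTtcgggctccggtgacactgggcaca
Cd36: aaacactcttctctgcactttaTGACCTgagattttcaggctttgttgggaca
Ucp3: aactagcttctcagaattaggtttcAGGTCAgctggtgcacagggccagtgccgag
They lie at chr4:107923590-107923627 on the minus strand (Cpt2), chr9:108662032-108662089 on the plus strand (Slc25a20), chr7:140116474-140116529 on the minus strand (Echs1), chr3:153944862-153944893 on the minus strand (Acadm), chr5:17836094-17836146 on the minus strand (Cd36) and chr7:100472922-100472977 on the plus strand (Ucp3). The Ucp3 promoter held the element at another place as well, ending 144 bases before the start.

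Fat uptake genes had slightly lower values in knockouts, none near the threshold. Cd36, the membrane protein that takes up long-chain fatty acids, read 11.91, 12.27, 12.67, 12.03 and 12.41 in controls 1 to 5 and 12.40, 12.10, 12.27, 12.20 and 12.04 in knockouts 1 to 5 (log2 intensity). The knockouts lay within the range of the controls, whose lowest and highest arrays were control 1 and control 3. The difference was -0.06 ± 0.14 (log2, SE, adjusted p = 0.985), and another Cd36 probe set gave 0.07. Fabp3, the fatty acid carrier of heart and oxidative muscle cytosol, differed by -0.05, from 14.91 ± 0.07 to 14.86 ± 0.08 (SD, n = 5 each). Lpl, the lipase that frees fatty acids from lipoproteins in capillaries, differed by -0.02, with an interval from -0.23 to 0.18, and its other probe set gave 0.02. The direction of this class is not settled. Without control 3 the median was 0.04 and 2 of 3 values were higher in knockouts, and with the second brightest probe set of each gene the median was 0.02, also with 2 of 3 higher. Lpl changed sign without knockout 4 or knockout 5 as well.

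Cd36 is also made by capillary cells and adipocytes, and Lpl by adipocytes. In whole muscle fewer cells of a type and less RNA per cell cannot be told apart. Endothelial markers had lower values for 7 of 8 genes, with a median of -0.21, and their mean level ran from 8.89 to 9.19 in controls and from 8.78 to 8.97 in knockouts (log2). Groups that did not overlap, found for 2.63% of all genes, were those of Tek, an endothelial receptor kinase (-0.27, adjusted p = 0.469), of the fibroblast collagens Col1a1 (-0.71, adjusted p = 0.104) and Col3a1 (-0.41, adjusted p = 0.376), and of Mb, myoglobin, the oxygen store of oxidative fibres (-0.14, adjusted p = 0.622). Adipocyte markers had 3 of 5 higher values, with a mean level from 9.27 to 9.84 in controls and from 8.68 to 10.15 in knockouts. Of that list Lep, and of the brown adipocyte list Ucp1, Cidea and Elovl3, were below the filter on dim probe sets, and Plin1 and Cfd had no probe set of their own. Slow fibre genes, which mark fibres rich in these enzymes, had 8 of 9 lower values with a median of -0.28 and no call. Their mean level ran from 12.79 to 13.81 in controls and from 12.01 to 13.68 in knockouts. Knockout 1 was the lowest array for every gene of that list. The other knockouts had mean levels from 12.85 to 13.68, inside the range of the controls. Fibroblast and tendon genes had 9 of 9 lower values (median -0.50) and macrophage genes 7 of 7 (median -0.41). The part of these cells in the members' values was not tested.

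The carnitine shuttle moves acyl chains across the inner mitochondrial membrane, and both of its measured genes had higher values in knockouts. Slc25a20, the carrier that exchanges acylcarnitine for carnitine, read 12.75, 12.89, 13.22, 12.83 and 12.75 in controls and 13.08, 12.97, 13.05, 13.10 and 13.01 in knockouts. The knockouts lay close together and above every control except control 3, the highest array of all. The difference was 0.15 ± 0.10 (SE, adjusted p = 0.794), and 0.24 without control 3 (adjusted p = 0.332). Leaving out the highest control can only raise the difference. Over the 22 other settings tried it ran from 0.12 to 0.26, with adjusted p from 0.265 to 0.969. A dimmer probe set of the same gene gave 0.26 (unadjusted p = 0.0287, adjusted p = 0.579). Cpt2, the inner membrane transferase that restores acyl-CoA, read 11.22, 11.10, 10.83, 10.78 and 10.94 in controls and 10.93, 11.32, 11.16, 11.00 and 11.29 in knockouts. Its groups overlapped widely, although the highest array was knockout 2 and the lowest control 4. The difference was 0.17 ± 0.11 (SE, adjusted p = 0.819).

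The acyl-CoA dehydrogenases open each round of beta-oxidation and differ in the chain length they take. Acads, the short-chain enzyme, had the lowest p of all members. It read 8.38, 8.23, 8.29, 8.17 and 8.27 in controls and 8.32, 8.52, 8.39, 8.66 and 8.76 in knockouts. All 5 knockouts stood above the control median, and the overlap came from control 1 and knockout 1. The difference was 0.26 ± 0.10 (log2, SE), or 1.20-fold with an interval from 1.04 to 1.39, at an unadjusted p of 0.0205 and an adjusted p of 0.541. By exact permutation over all assignments of the arrays (two-sided) Acads gave p = 0.0159, where the smallest possible value is 0.00794 and 44 members were examined. Without control 1 to 5 or knockout 1 to 5 in turn, and under the other settings tried, its difference stayed between 0.21 and 0.39, and its adjusted p ran from 0.154 to 0.820.

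The longer-chain dehydrogenases had smaller differences. Acadm, the medium-chain enzyme, read 13.02, 13.05, 13.20, 12.97 and 12.97 in controls and 13.08, 12.99, 12.98, 12.89 and 12.89 in knockouts. It was 1 of the 2 genes among the 17 with lower values, at -0.07 ± 0.07 (SE, adjusted p = 0.913), and knockout 1 stood among the higher controls. Acadl, the long-chain enzyme, differed by 0.06 and Acadvl, the very-long-chain enzyme of the inner membrane, by 0.05. Their intervals ran from -0.09 to 0.21 and from -0.10 to 0.21. The spread of differences over the chain lengths, from -0.07 to 0.26, was of the order of their intervals and was not tested.

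**Figure D3:**
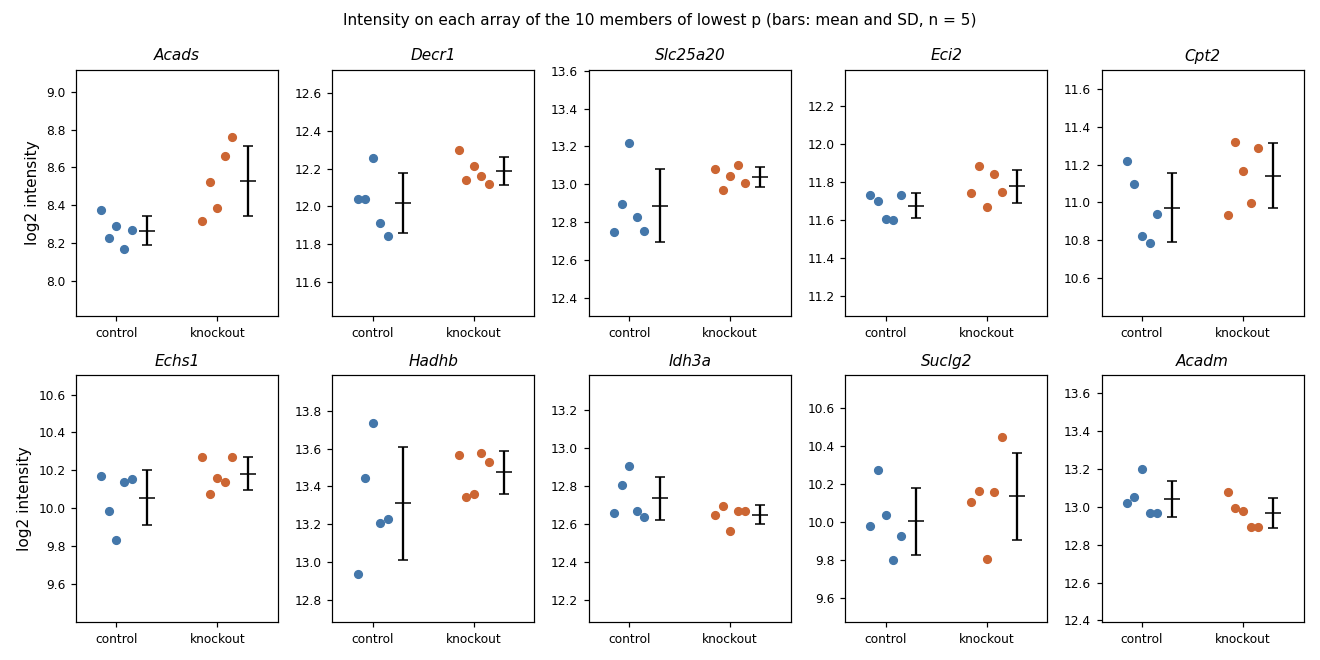
Log2 intensity (y axis) on each of the 5 control and 5 knockout arrays for the 10 members of lowest p, with the mean and SD beside each group. Every panel spans the same height, and the groups overlap in all 10.

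The later steps of beta-oxidation also leaned upward without a call. Echs1, the short-chain enoyl-CoA hydratase, read 10.17, 9.99, 9.83, 10.14 and 10.15 in controls and 10.27, 10.07, 10.16, 10.14 and 10.27 in knockouts. Control 3 was the lowest array, 2 knockouts stood above every control, and the difference was 0.13 ± 0.09 (SE, adjusted p = 0.821). Hadh, the short-chain hydroxyacyl-CoA dehydrogenase, differed by 0.06, and its other probe sets gave 0.09 and 0.11. Acaa2, the mitochondrial thiolase that cleaves off acetyl-CoA, differed by -0.03, with values of 12.73 to 13.22 in knockouts and 12.88 to 13.19 in controls. The dimmer Acaa2 probe sets gave -0.03 and 0.14.

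Hadha and Hadhb encode the subunits of the trifunctional protein, which handles long chains at the membrane. Hadhb, its thiolase subunit, read 12.94, 13.44, 13.73, 13.21 and 13.23 in controls and 13.56, 13.35, 13.36, 13.57 and 13.53 in knockouts. The controls spanned the whole range of the knockouts, with control 1 lowest and control 3 highest. The difference was 0.16 ± 0.14 (SE, adjusted p = 0.879), but the other Hadhb probe sets gave 0.01 and -0.02. Hadha, the hydratase and dehydrogenase subunit, differed by 0.03, with an interval from -0.21 to 0.27.

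Unsaturated fatty acids need auxiliary enzymes to move or remove their double bonds, and the 3 measured ones had higher values. Decr1, the dienoyl-CoA reductase, read 12.04, 12.04, 12.26, 11.91 and 11.84 in controls and 12.30, 12.14, 12.22, 12.16 and 12.12 in knockouts. As for Slc25a20, control 3 alone of the controls reached the level of the knockouts. The difference was 0.17 ± 0.09 (SE, adjusted p = 0.723), and 0.23 without control 3 (adjusted p = 0.437), again the highest control. Over the 22 other settings tried it ran from 0.12 to 0.24, with adjusted p from 0.264 to 0.969. The other probe set of Decr1 gave 0.24 (unadjusted p = 0.035, adjusted p = 0.604). Eci2, an enoyl-CoA isomerase, read 11.73, 11.70, 11.61, 11.60 and 11.73 in controls and 11.74, 11.89, 11.67, 11.85 and 11.75 in knockouts. All knockouts but knockout 3 were above every control by a small margin, and the difference was 0.10 ± 0.07 (SE, adjusted p = 0.816). Eci1, the other mitochondrial isomerase, differed by 0.03.

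Electron transfer flavoprotein passes electrons from the acyl-CoA dehydrogenases to the quinone pool through its own dehydrogenase. Etfa, its alpha subunit, read 13.00, 12.94, 12.95, 12.85 and 12.96 in controls and 12.92, 13.04, 12.98, 12.91 and 12.88 in knockouts. These groups were nearly superimposed, with a difference of 0.0080 ± 0.06 (SE) and an interval from -0.13 to 0.14. Etfb, the beta subunit, and Etfdh, the dehydrogenase, each differed by 0.05.

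The regulators of fuel choice were among the most variable members. Ucp3, an uncoupling protein of muscle mitochondria induced by fatty acids, read 9.37, 8.83, 9.70, 8.68 and 8.55 in controls and 8.69, 9.39, 8.81, 9.12 and 8.67 in knockouts. Its spread within groups, an SD of 0.41, was the widest of all members, and high and low arrays occurred in both groups. The difference was -0.09 ± 0.24 (SE, adjusted p = 0.985), with an interval from -0.62 to 0.44, and the dimmer Ucp3 probe set gave 0.23. Pdk4, the kinase that shuts pyruvate dehydrogenase off when fat is burned, differed by 0.12, with a range of 14.27 to 14.89 in controls and 14.27 to 14.81 in knockouts. Mlycd, the decarboxylase that removes malonyl-CoA and so frees the carnitine transferase, differed by 0.0050. Their within-group SDs were 0.23 and 0.29, and the intervals of the difference ran from -0.20 to 0.43 and from -0.38 to 0.39.

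The pyruvate dehydrogenase complex, which links glycolysis to the cycle, was close between the groups by the brightest probe set of each gene. Pdha1, the alpha subunit of the decarboxylase, read 13.69, 13.78, 13.88, 13.77 and 13.76 in controls and 13.85, 13.79, 13.78, 13.77 and 13.74 in knockouts. The knockouts lay inside the range of the controls, and the difference was 0.01 ± 0.06 (SE), with an interval from -0.12 to 0.15. Pdhb, the beta subunit, differed by -0.0081, Dlat, the acetyltransferase core, by -0.01, and Dld, the dehydrogenase shared with other complexes, by 0.06. The interval of each of the 4 lay inside 0.32 log2 units by the brightest probe set. Other Dlat probe sets gave 0.04 and 0.14, with intervals that reached 0.33 and 0.36. The other probe sets of Pdha1 and Pdhb gave -0.03 and -0.07.

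Of the 17 cycle enzymes 9 had higher and 8 lower values, and 16 had intervals inside 0.32 log2 units. Cs, citrate synthase, the entry enzyme, lay between 14.59 and 14.74 on all arrays and differed by -0.0034, with an interval from -0.13 to 0.12. Idh3a, the catalytic subunit of the NAD-linked isocitrate dehydrogenase, read 12.66, 12.80, 12.90, 12.67 and 12.64 in controls and 12.65, 12.69, 12.56, 12.67 and 12.67 in knockouts. Control 2 and control 3 stood above all knockouts and the other controls did not. The difference was -0.09 ± 0.07 (SE, adjusted p = 0.879), and the other 2 probe sets of the gene gave -0.08 and -0.10. The remaining subunits of that enzyme, Idh3b and Idh3g, differed by -0.04 and -0.0024, and Idh3g had the smallest spread of all members, an SD of 0.0193. Idh2, the NADP-linked mitochondrial form, differed by 0.02.

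Succinyl-CoA is made by the oxoglutarate dehydrogenase complex and used by succinyl-CoA ligase. Ogdh and Dlst of the former differed by -0.05 and 0.02. Suclg2, the GTP-specific subunit of the ligase, read 9.98, 10.27, 10.04, 9.80 and 9.92 in controls and 10.11, 10.16, 9.80, 10.16 and 10.45 in knockouts. The lowest value was near 9.80 in both groups, and knockout 5 was the highest array. The difference was 0.13 ± 0.13 (SE, adjusted p = 0.909), the largest among cycle enzymes, and the second Suclg2 probe set gave 0.06. Sucla2, the ATP-specific subunit, and Suclg1, the shared one, differed by 0.0077 and -0.01.

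The 4 subunits of succinate dehydrogenase, which also serves the respiratory chain, were close between the groups. Sdha, the flavoprotein, differed by 0.02, Sdhb, the iron-sulfur subunit, by 0.04, and the membrane anchors Sdhc and Sdhd each by -0.02. Fh1, fumarase, differed by 0.01, and the malate dehydrogenases Mdh1 (cytosolic) and Mdh2 (mitochondrial) each by 0.04. The widest interval among these 7 genes was that of Sdhd, from -0.27 to 0.23.

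Variation between arrays was larger than the difference between genotypes for most members. Control 3 was the highest of the 10 arrays for 17 members and the lowest for 5, and control 1 was the highest for 7 and the lowest for 9. On the 3 arrays with the highest hybridisation controls, 29 members had a higher mean than on the other 7 and 15 a lower one. For 35 of 44 members that difference was larger in size than the one between knockouts and controls. Pdk4 (0.40), Cd36 (0.31) and Acaa2 (0.24) had the largest positive differences (log2) on those arrays and Mlycd (-0.33) the largest negative one. With the hybridisation controls as a covariate no member passed (lowest adjusted p 0.154), 28 members still had higher values, and the median SE went from 0.0742 to 0.0701. The split of 3 against 7 arrays was not made over all genes, so no background share stands beside these counts. Whether the members move with these controls was not tested.

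**Figure D4:**
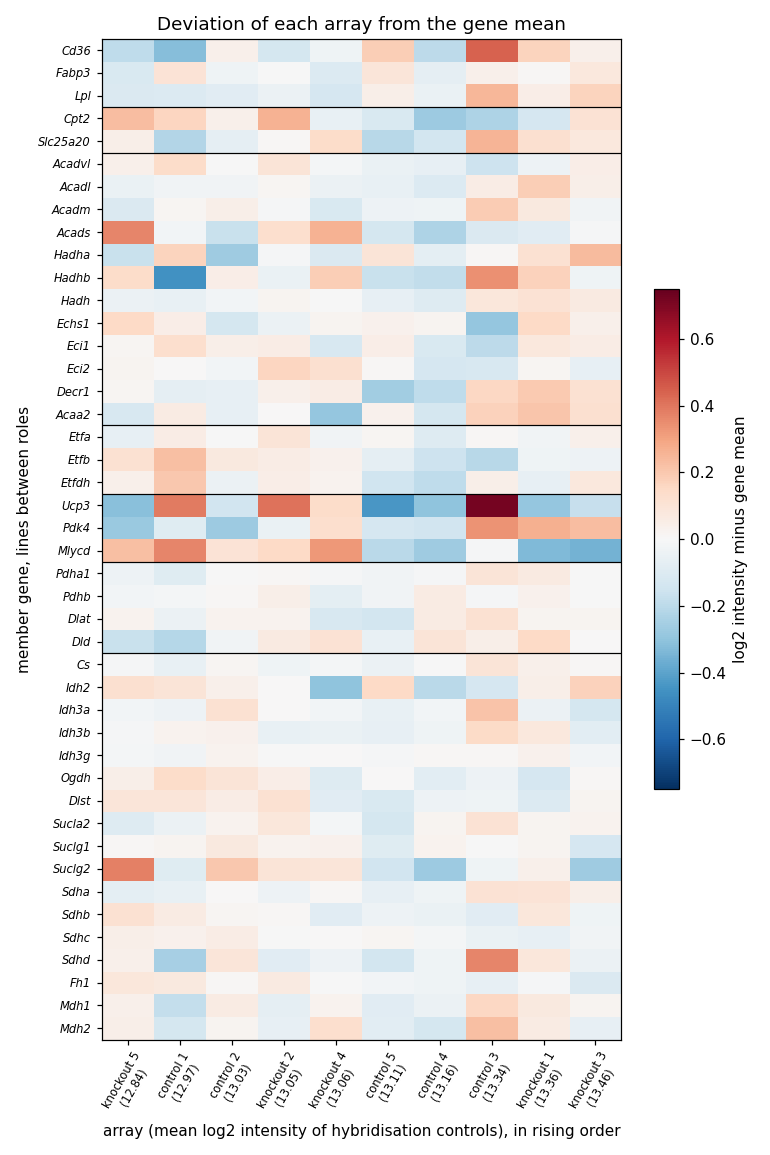
Deviation of each array from the gene's mean (colour, log2 intensity) for the 44 members (rows, lines between roles) over the 10 arrays (columns, from lowest to highest hybridisation controls, 12.84 to 13.46). Control 3 stands out with the highest value of 17 members, and no row separates knockouts from controls.

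Of 25 members with several kept probe sets, the probe sets gave the same sign for 12 and opposite signs for 13. Slc25a20, Decr1, Hadh, Idh3a and Suclg2 were among those with a single sign. Opposite signs were found for Cd36, Lpl, Hadhb, Acaa2 and Ucp3. They were also found for Pdha1, Dlat, Cs, Dlst, Sdha, Sdhc, Sdhd and Mdh1, of the pyruvate dehydrogenase complex and the cycle.

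Other genes of these pathways were taken from lists made by function. Of 90 listed, 79 were measured above the filter, and none passed the threshold, against 0.131% of all genes. Of the 79, 4 had an unadjusted p under 0.05 (5.06%, against 8.9% of all genes) and 4 had groups that did not overlap, against 2.63% of all genes. Crot, the peroxisomal carnitine octanoyltransferase that exports shortened chains to mitochondria, had the largest difference of all 79. It read 9.27, 9.21, 8.78, 9.02 and 9.11 in controls and 9.29, 9.72, 9.39, 9.77 and 9.67 in knockouts. Every knockout stood above every control, knockout 1 only just above control 1. The difference was 0.49 ± 0.13 (log2, SE), or 1.40-fold, with an unadjusted p of 0.00336 and an adjusted p of 0.336. With the hybridisation controls as a covariate it was 0.52 and passed (adjusted p = 0.0363), while the adjusted p over the other settings tried ran up to 0.662.

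Acadsb, the dehydrogenase of short branched chains, differed by 0.13 (adjusted p = 0.664) with groups that did not overlap, and Abcd2, a peroxisomal importer of very long chains, by 0.29 (adjusted p = 0.683). In the list of pyruvate and malonyl-CoA control 8 of 9 genes had higher values. Acacb, the acetyl-CoA carboxylase that makes malonyl-CoA at mitochondria, differed by 0.15 (adjusted p = 0.666), Pdp2, a pyruvate dehydrogenase phosphatase, by 0.30 (adjusted p = 0.689), and Mpc1, a subunit of the mitochondrial pyruvate carrier, by 0.09 with groups that did not overlap (adjusted p = 0.774).

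Among 19 further genes of the cycle, its refilling and its shuttles, 12 had higher values. Sdhaf1, an assembly factor of succinate dehydrogenase, read 9.16, 9.11, 8.73, 9.15 and 9.14 in controls and 9.32, 9.32, 9.24, 9.46 and 9.38 in knockouts. All knockouts were above all controls, and control 3 was far below the rest. The difference was 0.28 ± 0.10 (SE, adjusted p = 0.493). Pcx, pyruvate carboxylase, which refills the cycle, differed by 0.48 ± 0.21 (SE, adjusted p = 0.645), and Pcca, a subunit of propionyl-CoA carboxylase, by -0.19 (adjusted p = 0.690).

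In the list of uptake and lipid droplet genes 10 of 17 had higher values. Mgll, the monoglyceride lipase that ends triglyceride breakdown, differed by -0.27 (unadjusted p = 0.0265, adjusted p = 0.570), Vldlr, a lipoprotein receptor, by 0.24 (adjusted p = 0.652) and Acsl4, an acyl-CoA synthetase, by 0.20 (adjusted p = 0.742). Of 16 regulators of these genes, among them the PPAR and ERR receptors, 5 had higher values, with a median of -0.07. Those of lowest p were Rxra (-0.15), the partner receptor of PPAR, Esrra (0.19), which encodes ERR-alpha, and Pparg (-0.39), with adjusted p of 0.763, 0.797 and 0.806. Another Esrra probe set had the opposite sign. Ppargc1a, the coactivator of mitochondrial gene programmes, differed by -0.07 (adjusted p = 0.957).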

How the data were processed

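The authors deposited a table of linear microarray intensity for 45101 probe sets on 10 arrays, made with GCRMA per the submitters' processing notes. Its version is not given in the sources used here. GCRMA corrects background, normalizes between arrays and summarises probes, and it leaves dim probe sets near a floor. Intensities were converted to log2. Gene names came from the platform's annotation table, and a probe set with several symbols was not used for a named gene. A probe set was kept at a mean log2 value of 4 or above, and 64 array controls were left out, which gave 21154 probe sets for 10704 genes. Knockout and control arrays were tested on the log2 scale by limma (version 3.58.1, R 4.3.3; a linear fit with moderated variances, two-sided, Benjamini-Hochberg over all kept probe sets), a procedure also tested on simulated data. SE and 95% intervals come from that fit, and the number of arrays limits the precision. The labels list each array as its own sample without stating that each is a different mouse, so p-values measure the spread between these samples, which may be technical. The members and lists were chosen with earlier results of these data known. Array values are given for the 10 members of lowest p and for the first listed gene of each role not among them. Up to 3 genes of lowest p were named in each other list. Ppargc1a and the marker genes named with values were chosen outside that rule, after their values were seen. Same-numbered arrays deviated together with correlations from -0.51 to 0.62, so the numbers were not used as pairs. Plots used matplotlib 3.10.9 (Python 3.11.15).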

Additional observations from a re-analysis of the deposited data

Results flagged for a closer look

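Of 118 groups of 5 arrays tested for the members and the other named genes, 5 held an array far from the rest of its group, where chance gives about 5.9. In knockout 4 Dlat read 11.35 (log2 intensity), with the remaining knockouts at 11.49 to 11.50. In knockout 3 Suclg1 read 12.43, with the rest of its group at 12.57 to 12.59. In knockout 1 Acacb read 12.37, with the rest at 12.55 to 12.58. In control 3 Sdhaf1 was 8.73, against 9.11 to 9.16 in the other controls, and Pparg was 4.82, against 5.80 to 6.02.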

How the results depend on the processing

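No member passed under any of 22 alternatives, and 851 of 949 recomputed member differences kept their sign, with 22 of 44 members keeping it throughout. The median of the beta-oxidation members stayed between 0.04 and 0.09, and with the same genes 13 to 16 of 17 had higher values. The median of the fat uptake genes ran from -0.07 to 0.04, that of the 3 fuel choice genes from -0.08 to 0.20 (0.23 with second brightest probe sets, where Ucp3 alone has one) and that of the cycle enzymes from -0.01 to 0.02, so their signs are not settled. At an unadjusted p under 0.05, 4 members stood without control 3 and 0 without knockout 4. The count of 21 probe sets past the threshold became 11 when dim probe sets were kept, 36 after quantile normalization, 58 with a variance trend and robust fit, 67 with array weights, 99 with the hybridisation control covariate and 5 without the 3 arrays of highest hybridisation controls. Leaving out each array in turn gave 1 to 17. A fit with a replicate block left 1 probe set and no member. The count of other pathway genes became 1 (Crot) with the covariate. The causes were not tested.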
